A study of Mus musculus with 6 samples.

Results

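The intervals described here are the called peaks of histone H3 lysine 9 acetylation (H3K9ac) that the deposited lists class as lying in an intron of a RefSeq gene. Each of the 6 lists belongs to 1 chromatin immunoprecipitation library, so intronic intervals were taken from every list and merged wherever they shared at least 1 bp. This gave 6202 intronic regions, out of 23983 merged regions of all classes, with a total length of 1737 kb on mm10. Chromatin was prepared from epithelial cells of the mouse distal intestine (strain C57BL/6). The 3 groups were germ-free mice, which carry no microbes, mice monoassociated with E. coli, which carry that bacterium alone, and conventionally housed mice, with 2 libraries each. No age, sex or count of animals per library is given in the labels used here, and nothing there says whether replicates came from separate animals, so every p-value below measures only the spread between libraries. All libraries were made with the same antibody and kit and read to a stated depth of 20 M single-end reads of 50 bp.

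Acetyl groups on lysine 9 of histone H3 are placed by acetyltransferases such as Kat2a and Kat2b and removed by histone deacetylases. The mark is known chiefly from active promoters, where it spreads over the nucleosomes downstream of the start site and so reaches into the first intron of active genes. It is also found at active enhancers and at alternative promoters, many of which lie within introns. In the intestinal epithelium, enhancers of this kind are known to be bound by factors such as Cdx2, the Hnf4 pair and Gata proteins.

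The plainest intronic cases with a sequence are those in which a second start site of the host gene itself falls inside the region. A window from 250 bases before to 50 after a start listed by RefSeq (GRCm38.p6) overlapped 73 of the 6202 regions (1.18%). In 31 of them the start was one of the host gene. An overlap of any length counted, so the start itself could lie outside the region, as at Foxn3, where 3 bp overlapped. The share of regions with such an overlap was 0.687, 2.22, 3.16, 3.20, 3.57 and 4.55% among regions called in 1 to 6 libraries. Median width rose over the same regions, at 177, 324, 369, 396, 428.5 and 664.5 bp, and wider regions can overlap more windows. The rise in share was not separated from width. The 300-base windows below, from 250 bases before to 50 after such a start, are shown because they lie whole within regions called in 5 or 6 libraries. They are written 5′ to 3′ on the strand of the gene, with capitals for matches, on either strand, to the motifs GGGNGGGG (KLF and Sp factors) or CCGGAAG (Ets factors).
Arrdc3, chr13:80885845-80886144, plus strand: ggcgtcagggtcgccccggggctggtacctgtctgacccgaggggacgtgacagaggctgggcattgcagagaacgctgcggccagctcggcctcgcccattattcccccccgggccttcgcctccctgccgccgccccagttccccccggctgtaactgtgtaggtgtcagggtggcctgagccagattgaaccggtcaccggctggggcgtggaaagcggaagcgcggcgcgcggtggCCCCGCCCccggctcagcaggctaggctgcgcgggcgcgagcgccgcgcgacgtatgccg
Zbtb7b, chr3:89387622-89387921, minus strand: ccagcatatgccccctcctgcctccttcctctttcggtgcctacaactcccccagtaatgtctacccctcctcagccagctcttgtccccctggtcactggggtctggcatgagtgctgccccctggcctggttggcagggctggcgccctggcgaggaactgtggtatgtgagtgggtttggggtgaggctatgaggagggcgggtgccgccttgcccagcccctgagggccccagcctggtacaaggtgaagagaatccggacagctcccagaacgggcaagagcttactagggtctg
Ppfibp2, chr7:107665228-107665527, plus strand: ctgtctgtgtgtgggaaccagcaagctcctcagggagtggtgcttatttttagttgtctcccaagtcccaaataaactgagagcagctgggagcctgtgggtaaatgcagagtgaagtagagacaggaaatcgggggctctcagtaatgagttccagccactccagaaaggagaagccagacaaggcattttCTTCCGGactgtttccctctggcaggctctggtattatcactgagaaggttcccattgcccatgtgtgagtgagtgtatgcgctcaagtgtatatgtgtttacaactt
Zbtb38, chr9:96719801-96720100, minus strand: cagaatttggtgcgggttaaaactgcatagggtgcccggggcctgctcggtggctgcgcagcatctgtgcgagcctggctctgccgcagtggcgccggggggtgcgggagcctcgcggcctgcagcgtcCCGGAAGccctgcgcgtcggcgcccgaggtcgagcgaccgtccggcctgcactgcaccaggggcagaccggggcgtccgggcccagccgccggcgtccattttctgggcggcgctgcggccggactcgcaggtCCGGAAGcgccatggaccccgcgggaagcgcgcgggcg

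These 4 windows differ in base composition. G and C made up 72.7% of the Arrdc3 window and 74.7% of the Zbtb38 window, against 63.3% for Zbtb7b and 49.0% for Ppfibp2. CpG pairs numbered 35 and 41 in the first pair and 7 and 3 in the second. Over all 18 windows that lie whole inside an intronic region the median was 62.7% G and C with 19 CpG pairs, against 52.7% and 7 over all 32851 windows of the RefSeq table. The Ets motif CCGGAAG was in 4 of the 18 windows (22.2%), against 8.86% of all windows, and the KLF motif GGGNGGGG in 4 (22.2%), against 33.2%. Other motifs, searched on both strands and with overlaps between motifs allowed, matched none of the 4 printed windows. Over all windows and over the 18, their shares were 0.475 and 0% for HNF4 (CAAAGTCCA), 6.36 and 5.56% for its relaxed form (CAAAGNNCA), 10.9 and 11.1% for CDX (TTTATNG) and 4.60 and 11.1% for its strict form (TTTATTG). They were 11.2 and 0% for AGATAA, which Gata factors bind, 7.81 and 11.1% for AP-1 (TGANTCA), 13.3 and 16.7% for Elf3 and Ehf (CAGGAAG), 15.3 and 11.1% for the Ctcf core (CCACNAG) and 7.15 and 5.56% for the E-box (CACGTG). A match, or the lack of one, describes these letters in these windows only.

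Arrdc3, an arrestin-domain protein that acts in receptor trafficking, held such a region 2.79 kb from the start site the authors used, with a second RefSeq start 2673 bp downstream of the first. Its fold enrichment, the ratio of pileup to background reported by the peak caller, was 13.3 and 13.9 (germ-free), 10.7 and 6.41 (E. coli) and 9.20 and 21.7 (conventional). Zbtb7b, a zinc-finger transcription factor, had a start 5532 bp downstream of the authors' start. The fold there was 5.77 and 5.07, 9.47 and 6.41, and 8.49 and 12.3 in the same order. All 6 libraries called both regions, and intervals covered the listed start itself in 3 libraries at Arrdc3 and in 5 at Zbtb7b.
The Ppfibp2 region lay 70.5 kb into that gene, which encodes a liprin scaffold protein, and the gene had no promoter interval in any library. Its intronic region, 2807 bp wide, had a fold of 5.77 and 10.1 in the germ-free libraries, of 8.29 in E. coli replicate 1, and 4.95 and 10.9 in the conventional libraries, and was not called in E. coli replicate 2. Zbtb38, a methyl-CpG-binding zinc-finger protein, showed the same presence, with folds of 5.19, 6.97, 5.92, 6.37 and 9.41, and likewise had no promoter interval. An interval overlapped the region in those 5 libraries, but intervals reached the RefSeq start itself in 3 libraries at Ppfibp2 (germ-free replicate 2 and both conventional) and in 2 at Zbtb38 (germ-free replicate 1 and conventional replicate 2). Mrpl48, a mitochondrial ribosomal protein gene, and Zmynd11, a histone reader, had a whole window of their own inside a region called in all 4 germ-free and conventional libraries and neither E. coli library. An upstream start of Hnf4a, a nuclear receptor that controls enterocyte genes, lay in an intron of the oppositely oriented 0610008F07Rik. That region was called in germ-free replicate 2 (fold 7.60) and in both conventional libraries (6.37 and 7.97).

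MicroRNA genes formed another group of transcripts with intronic marks nearby. Of 1005 hairpins, 16 lay within 1 kb of an intronic region, and 6 of these were near a region called in 2 or more libraries. The pair Mir194-1 and Mir215, which lies in an intron of Iars2 on the opposite strand, is shown because miR-194 and miR-215 are known markers of intestinal epithelium. Mature sequences are from RefSeq, with the seed (bases 2 to 8) in capitals, and miR-192-5p is added because it shares its seed with miR-215-5p.
miR-194-5p: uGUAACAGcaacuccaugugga
miR-215-5p: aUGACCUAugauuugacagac
miR-192-5p: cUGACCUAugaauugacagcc

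All 6 libraries called an interval that overlapped the Mir194-1 hairpin, named for both miRNAs and classed as promoter. Its fold was 8.66 and 12.0 (germ-free), 7.69 and 5.70 (E. coli) and 12.0 and 13.04 (conventional), and its width ran from 280 bp in E. coli replicate 2 to 1635 bp in germ-free replicate 1. E. coli replicate 2 had a further interval of 241 bp (fold 7.13) beside it that did not reach the hairpin. The intronic region chr1:185313843-185313989 lay 150 bp from the Mir215 hairpin and entered as an Iars2 interval of conventional replicate 1 (fold 5.66). Promoter-class intervals of both germ-free libraries and conventional replicate 2 reached it, and neither E. coli library did. A second intronic region, chr1:185314004-185314254, was called in germ-free replicate 2 (4.43) and conventional replicate 2 (3.62). Iars2, an isoleucyl-tRNA synthetase of mitochondria, had 5 intronic regions in all and no promoter interval of its own.

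**Figure D1:**
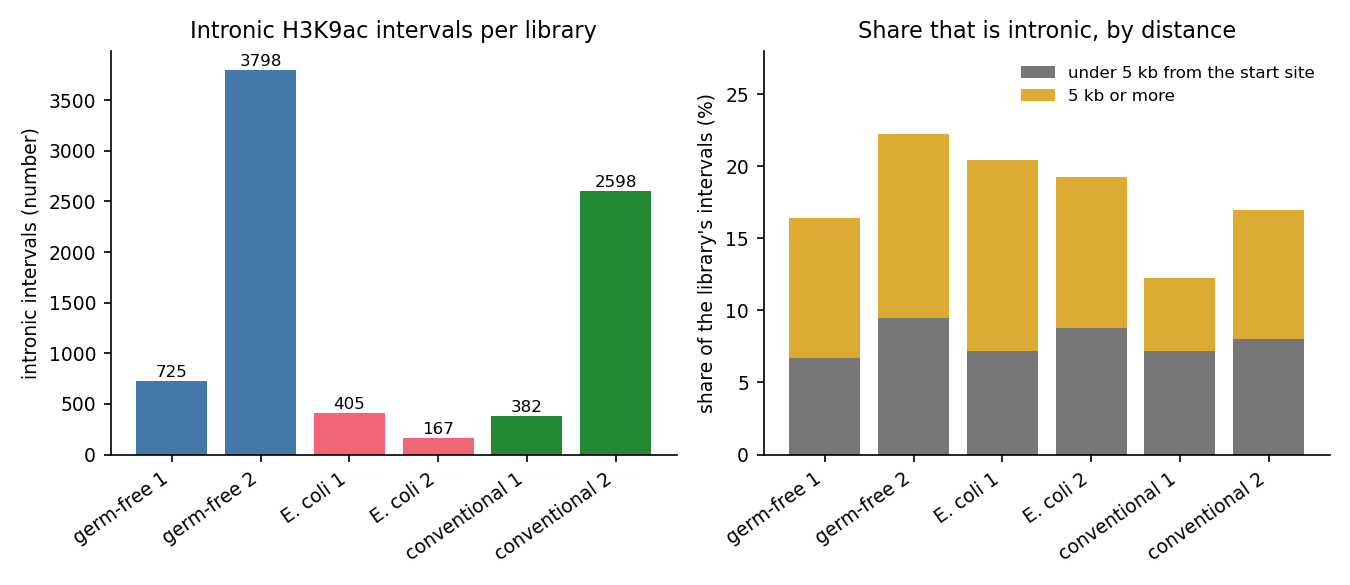
The left panel plots the number of intronic intervals in each of the 6 libraries (bars, coloured by group), and the right panel the percentage of the library's intervals that are intronic, split at 5 kb from the start site. Germ-free replicate 2 and conventional replicate 2 hold 3798 and 2598 intronic intervals and the other 4 libraries 167 to 725, while the share stays between 12.3 and 22.2%.

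The number of intronic intervals differed widely between libraries of the germ-free and the conventional group. Germ-free replicate 1 had 725 and replicate 2 had 3798, the E. coli libraries had 405 and 167, and the conventional libraries had 382 and 2598. Both E. coli libraries were below both germ-free libraries, while E. coli replicate 1 was above conventional replicate 1. On the log2 scale the E. coli mean was 2.67 below the germ-free mean (p = 0.333, exact permutation of libraries, two-sided), the smallest p that 2 against 2 allows. The E. coli minus conventional difference was -1.94 (exact permutation p = 0.667) and the conventional minus germ-free difference -0.74 (exact permutation p = 0.667). Over the 3 groups, 50.4% of the variation, as sums of squares, lay between groups (p = 0.333, exact permutation, where 0.0667 is the smallest possible).

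The 2 longest lists had the most intronic intervals and the shortest list the fewest. The lists held 4428, 17092, 1986, 868, 3113 and 15348 intervals, given here and below for the germ-free, then the E. coli, then the conventional pair. Intronic intervals made up 16.4 and 22.2% of the germ-free lists, 20.4 and 19.2% of the E. coli lists and 12.3 and 16.9% of the conventional lists. The E. coli values lay inside the germ-free range and above both conventional values. Group means were 19.3% ± 4.14 (SD, n = 2), 19.8% ± 0.815 (SD, n = 2) and 14.6% ± 3.29 (SD, n = 2), and 53.6% of the variation lay between groups (p = 0.467, exact permutation). The E. coli minus conventional difference of 5.22 percentage points gave an exact permutation p of 0.333, again the smallest possible. It became -0.371 when the regions called in all 6 libraries were left out.

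When each list was cut to its 868 most significant intervals, the length of the shortest list, the intronic share separated the E. coli group. It was then 13.7 and 8.18% (germ-free), 20.5 and 19.2% (E. coli) and 12.1 and 4.03% (conventional). The E. coli mean was 8.93 points above germ-free and 11.8 points above conventional (exact permutation p = 0.333 for each), with no overlap of E. coli with either other group. The 3-group test gave an exact permutation p of 0.133. Within the germ-free and the conventional group the longer list had the lower share, and the 2 shortest lists are the E. coli ones, so list length and group cannot be told apart here.

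**Figure D2:**
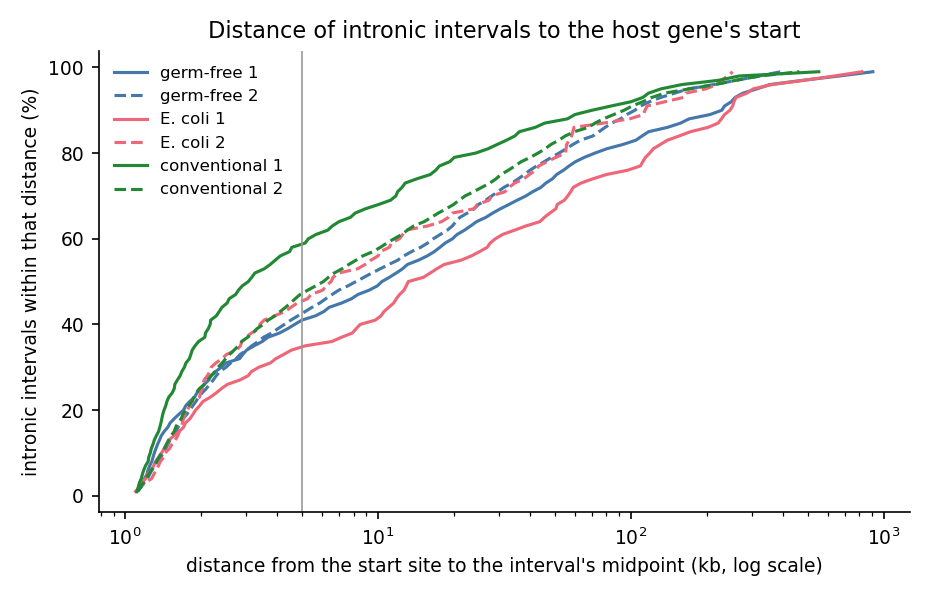
Each line gives, for 1 library, the percentage of intronic intervals (y axis) whose midpoint lies within a given distance of the host gene's start site (x axis, kb, log scale), with solid lines for replicate 1, dashed lines for replicate 2 and a vertical line at 5 kb. All lines begin just beyond 1 kb, and the share within 5 kb runs from 35.1% in E. coli replicate 1 to 58.6% in conventional replicate 1.

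Intronic intervals fell into a group close to the start site and a long tail. Because the promoter class takes intervals within about 1 kb of a start, the closest midpoint was 1074 bp away. Of the 6202 merged regions, 25.2% lay within 2 kb of the authors' start, 43.6% within 5 kb, 53.5% within 10 kb and 79.4% within 50 kb. The median was 7.67 kb over merged regions. By library it was 10.4 and 8.17 kb (germ-free), 13.2 and 6.52 kb (E. coli) and 3.07 and 6.08 kb (conventional). Both conventional medians were below both germ-free and both E. coli medians, and 53.5% of the variation lay between groups (p = 0.4, exact permutation).

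Near intervals, under 5 kb from the start, were more often close to a promoter interval than far ones in each of the 6 libraries. In the same library, 37.7 and 60.9% of near intervals (germ-free), 32.4 and 38.2% (E. coli) and 47.8 and 57.2% (conventional) were less than 1 kb from a promoter interval. For intervals at 5 kb or more the share was between 0.701 and 4.43%. Promoter intervals lie within about 1 kb of a start, so this contrast follows largely from the class rule and the 5 kb split. The host gene of a near interval had a promoter interval in the same library in 55.6 and 89.4%, 48.6 and 60.5%, and 70.1 and 91.2% of cases. For far intervals these shares were 22.2 and 66.3%, 14.4 and 25.3%, and 32.3 and 64.4%. Over all protein-coding genes, 11.01 and 29.7%, 4.21 and 1.87%, and 9.10 and 32.9% had a promoter interval in these libraries. Near and far shares were both above that background in every library. In E. coli replicate 2, however, 17 of the 91 far intervals lay in a single gene with a promoter interval, Sfi1, described below. Intervals are thus not separate genes in these shares.

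The near share of a list hardly differed between groups, and the far share differed more. Near intronic intervals were 6.71 and 9.47% of the germ-free, 7.15 and 8.76% of the E. coli and 7.20 and 7.99% of the conventional lists, with 4.62% of the variation between groups (p = 1, exact permutation). Far intronic intervals were 9.67 and 12.8%, 13.2 and 10.5%, and 5.08 and 8.94%. Both conventional values were below all 4 others. The conventional minus germ-free difference was -4.20 points and the E. coli minus conventional difference 4.86 points (exact permutation p = 0.333 for each, the smallest possible). Over the 3 groups the exact permutation p was 0.267.

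Intronic intervals were short. Their median width was 168 and 209 bp (germ-free), 167 and 234 bp (E. coli) and 208.5 and 196 bp (conventional), near the shortest interval any list held (146 or 147 bp). Promoter intervals had medians of 211 and 308, 201 and 208, and 231 and 313 bp. Intronic intervals were narrower than promoter intervals in 5 of 6 libraries, and E. coli replicate 2 was the exception at 26 bp wider; the mean difference was -48.2 bp (exact sign-flip permutation p = 0.0938). Without the regions called in all 6 libraries they were narrower in 6 of 6, with a mean difference of -67.5 bp (exact permutation p = 0.0312). That setting removed intronic intervals only and kept every promoter interval. The removed regions were the widest intronic ones (median 664.5 bp), so a more negative difference was built in and supports no conclusion. The median width did not separate the groups (6.62% of the variation, p = 1, exact permutation). Within a list, the median percentile of -log10 p of intronic intervals was 6.42 points below that of promoter intervals on average (exact permutation p = 0.25), with differences of -19.0 and -19.0, 0 and 17.9, and 0 and -18.4 points.

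**Figure D3:**
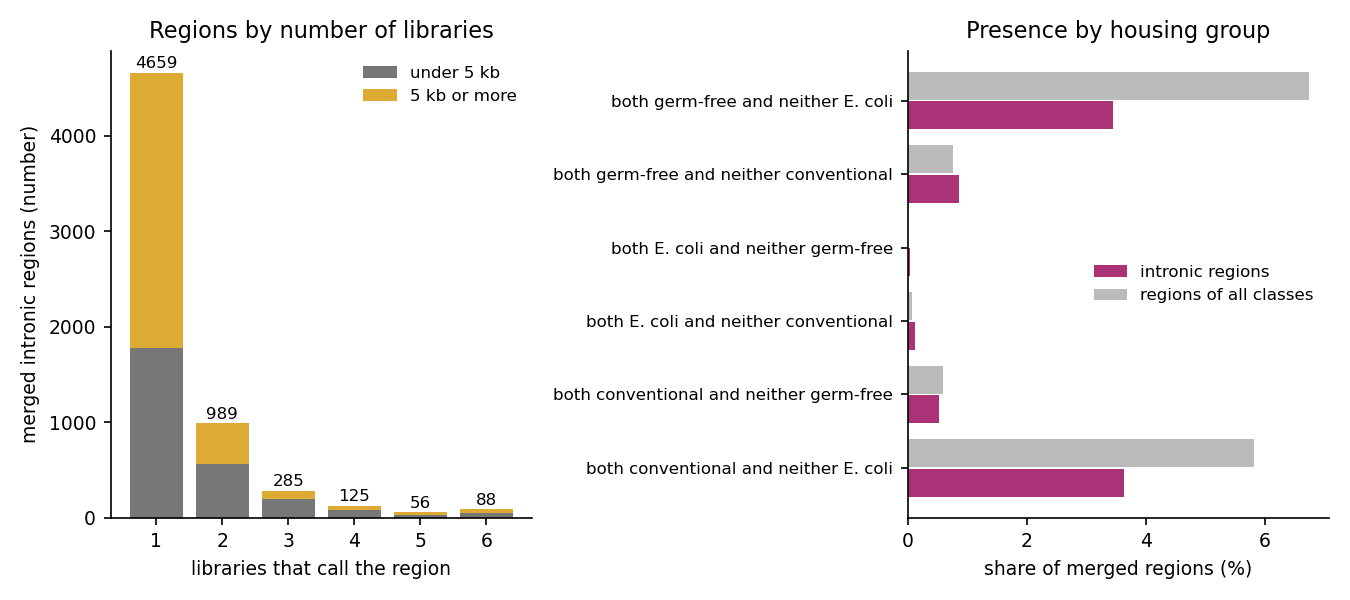
The left panel counts merged intronic regions by the number of libraries that call them, split at 5 kb from the start site, and the right panel gives the percentage of merged regions, intronic or of all classes, called in both libraries of 1 group and neither of another. Regions called in 1 library number 4659, and the 2 largest patterns, germ-free or conventional without E. coli, are a smaller share of intronic regions (3.45 and 3.63%) than of all regions (6.74 and 5.82%).

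Most intronic regions were seen in a single library. A region counted as called wherever an interval of any class overlapped it, and on that count 4659 regions (75.1%) were called in 1 library, against 65.6% of merged regions of all classes. A further 989 were called in 2 libraries, 285 in 3, 125 in 4, 56 in 5 and 88 in all 6. The regions in 1 library came mainly from germ-free replicate 2 (2736) and conventional replicate 2 (1430), and 316 came from germ-free replicate 1, 146 from E. coli replicate 1, 19 from conventional replicate 1 and 12 from E. coli replicate 2. The share within 5 kb of the start rose from 38.2% in 1 library to 56.8% in 2, 68.1% in 3 and 68.0% in 4, and then fell to 60.7% in 5 and 52.3% in 6. Promoter-class intervals of another library overlapped 28.8% of regions in 2 libraries, 51.6% in 3, 56.8% in 4, 57.1% in 5 and 42.0% in 6.

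Sharing between libraries was uneven. The longest list, germ-free replicate 2, overlapped 45.9% of the intronic intervals of germ-free replicate 1, 53.8 and 83.8% of those of the E. coli libraries, and 78.0 and 41.6% of those of the conventional libraries. Conventional replicate 1 shared 85.6% of its intronic intervals with conventional replicate 2 and 44.0% with germ-free replicate 1. Only 5.71% of the intronic intervals of germ-free replicate 2 were in its own replicate 1, and 26.0% were in conventional replicate 2.

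The 88 regions called in all 6 libraries were 1.42% of intronic regions, against 1.57% over all classes. They held 11.7 and 1.69% of the intronic intervals of the germ-free libraries, 21.7 and 58.1% of the E. coli and 21.2 and 2.35% of the conventional libraries. They were thus most of the intronic intervals of E. coli replicate 2, the shortest list. There were 46 within 5 kb of the start, in 38 genes, and 34 of those were promoter class in at least 1 library. The other 42, in 27 genes, lay farther, and 3 of those were promoter class anywhere.

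Of the 38 genes with a near region, the ones described here were picked after their values were seen. Others include 2700054A10Rik, Aida, Baz2b, Ywhaz, Ppp1r10 and the Pisd pseudogenes. Cdx2, the homeobox factor that sets intestinal identity, had 3 regions called in all 6 libraries between 2.88 and 4.80 kb from its start. The region closest to the start, chr5:147304065-147304668, had a fold of 13.3 and 14.6 (germ-free), 14.8 and 7.13 (E. coli) and 14.2 and 22.4 (conventional). Its values in the 3 groups overlapped. Vil1, the villin that bundles actin in microvilli, had a fold of 10.4 and 10.1, 7.69 and 9.98, and 7.78 and 15.9 at chr1:74410673-74411724, which is 1.90 kb from its start. Epcam, the epithelial adhesion molecule, had 2 such regions, and the first gave 9.23 and 19.6, 8.88 and 8.55, and 10.6 and 18.8.

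Among the Krüppel-like factors, Klf5, which is active in crypt cells, had 9.81 and 15.8, 8.29 and 6.41, and 9.20 and 15.2 fold at a region 1.71 kb from the start. Klf6 had 10.4 and 24.7, 5.92 and 7.84, and 9.20 and 16.7, and Klf3 had 6.92 and 26.0, 5.92 and 7.13, and 9.91 and 13.8. Hnf4a, at 2.36 kb from its start, had 8.08 and 13.3, 5.92 and 4.99, and 6.37 and 9.41. Folds are not scaled between lists, so they are given as descriptions and the libraries are not ranked by them at these genes. Here and elsewhere a region's fold is that of the highest-ranked interval of any class that overlaps it, so many come from promoter-class intervals. At Klf3 only the 5.92 of E. coli replicate 1 is from an intronic interval. Ezr, the membrane linker ezrin, Krt19, a simple-epithelium keratin, Atp1b1, the beta subunit of the sodium pump, and Irf2, an interferon regulatory factor, also had a near region in all 6 libraries. Cnnm4, a magnesium transporter of the intestinal epithelium, had the widest near one, 2658 bp, with folds from 4.28 to 10.1, and all 6 libraries classed it as intronic. The lowest value is from E. coli replicate 2, at chr1:36474974-36475268, which did not overlap the intervals that gave the other values.

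**Figure D4:**
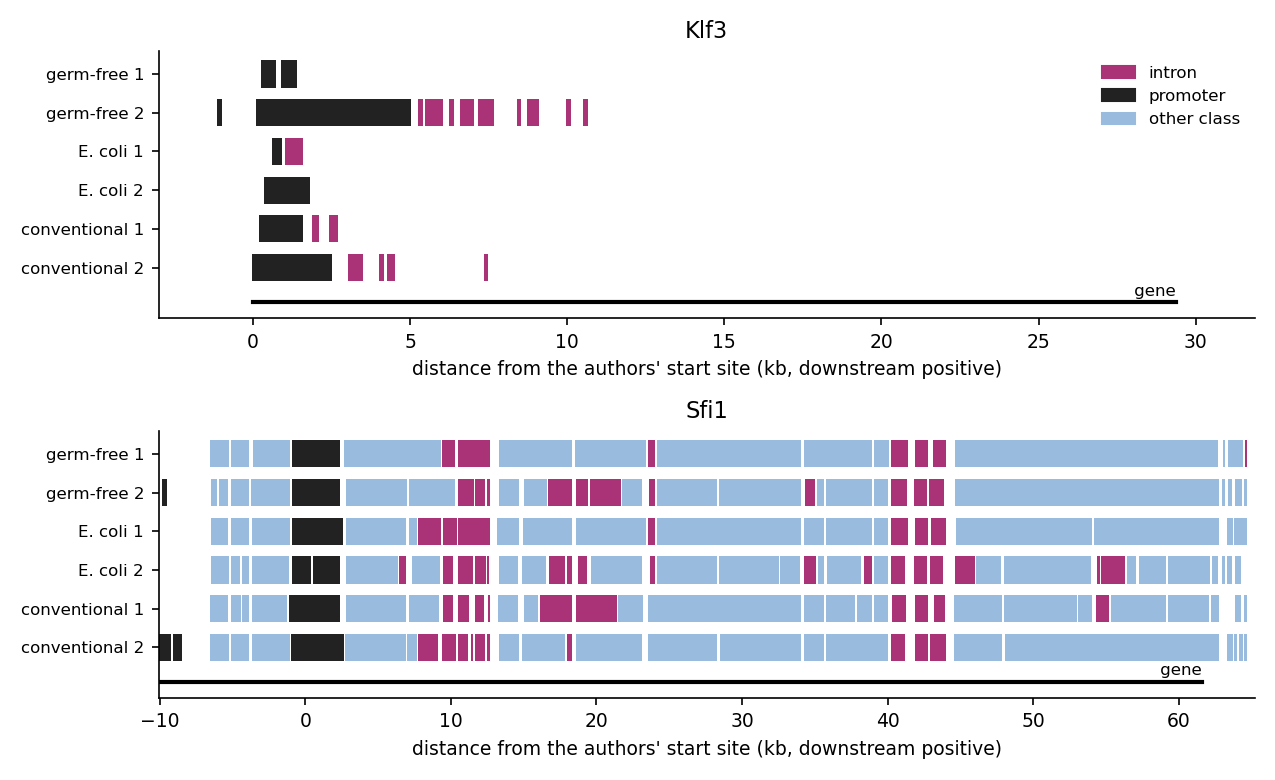
Every interval along Klf3 and Sfi1 is drawn by library (rows) against distance from the authors' start site (x axis, kb), coloured by class, with the RefSeq gene as a line. In Klf3 the calls lie in the first 10.7 kb and reach farthest in germ-free replicate 2, whereas in Sfi1 they tile the gene in all 6 libraries.

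Klf3 shows 1 place under several classes. Its 15 intronic regions lay within the first 10.7 kb of the 29.4 kb gene. In germ-free replicate 2 a promoter-class interval of 4922 bp covered the place that E. coli replicate 1 called as an intronic interval of 544 bp, and 9 intronic intervals followed it downstream. Intervals covered 3.34 and 25.9% of the gene (germ-free), 2.94 and 4.90% (E. coli) and 6.59 and 12.0% (conventional). Germ-free replicate 2 and conventional replicate 2 were highest.

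The far regions called in all 6 libraries included many in Sfi1. The far median fold was 15.004 and 14.3 (germ-free), 14.2 and 9.98 (E. coli) and 11.7 and 12.3 (conventional), against 8.08 and 13.3, 6.81 and 6.41, and 9.20 and 14.5 for the near ones. The far median was the higher one in 5 libraries and the lower one in conventional replicate 2. Sfi1, a centrosomal protein gene, held 14 of the 42. Without Sfi1 the far medians were 10.1 and 12.0, 9.47 and 7.84, and 8.49 and 11.6, higher than the near ones in 3 libraries (germ-free replicate 1 and both E. coli) and lower in the other 3. Intervals covered 89.6 and 87.3% of its 71.5 kb (germ-free), 88.7 and 82.4% (E. coli) and 85.0 and 89.4% (conventional), at median folds of 21.4 and 13.9, 20.1 and 13.5, and 14.2 and 13.04. Single intervals there were up to 18156 bp wide. No group stood apart at Sfi1. The gene is on the minus strand, and its downstream end, chr11:3131850, lies beside the Pisd-ps1 region whose last base is chr11:3128604. Whether reads at Sfi1 are shared between copies, and whether its tiling reflects acetylation, was not tested.

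**Figure D5:**
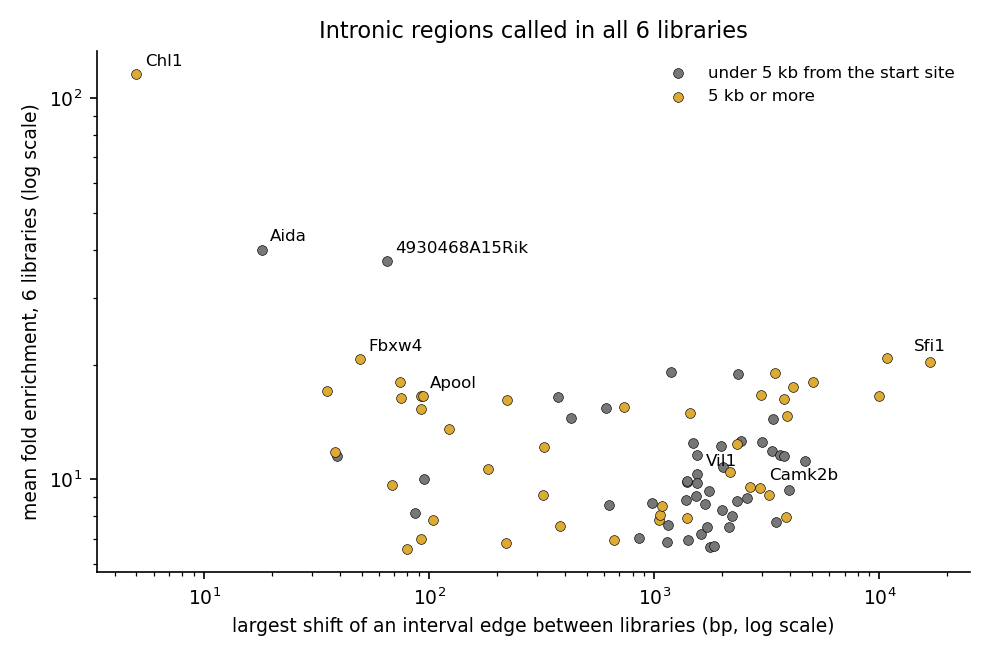
Each point is 1 of the 88 intronic regions called in all 6 libraries, with the largest shift of its interval edges between libraries on the x axis (bp) and the mean fold over 6 libraries on the y axis, both on log scales. Chl1, Aida and 4930468A15Rik combine folds above all others with shifts of 5, 18 and 65 bp, and near regions such as Vil1 lie to the right.

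The tallest intronic region was in Chl1, a neural cell adhesion gene, 138 kb from its start at chr6:103648987-103649364. Its fold was 155.8 and 84.9 (germ-free), 158.0 and 100.5 (E. coli) and 96.9 and 96.3 (conventional), and its edges differed by at most 5 bp between libraries. Chl1 had no promoter interval in any library. Aida, an axin-interaction gene, followed with 37.5 and 65.9, 39.7 and 37.1, and 32.5 and 27.5 at chr1:183299067-183299645, with edges within 18 bp. The X-linked 4930468A15Rik had 60.0 and 21.5, 54.5 and 25.7, and 34.0 and 29.0, with edges within 65 bp and no promoter interval.

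Edges within 100 bp in all 6 libraries were seen at 17 of the 88 regions, 12 of them far and 5 near, while the median shift was 1582 bp over near and 695.5 bp over far regions. The 17 included regions of Fbxw4, Apool, 2210408I21Rik, D5Ertd579e, Cdk5rap2, Sp140, Pisd-ps1 and Pisd-ps2. Several of these names belong to families with near-identical copies (Pisd and its pseudogenes, the Sp110 and Sp140 cluster), so reads there could be shared between copies, and the treatment of such reads is not given in the sources used here. Where a pileup is listed (5 libraries), each interval's fold was its pileup plus 1, divided by a single list-wide constant plus 1 (to within 0.000446%), so no local or input background entered these values. Whether these tall, fixed intervals reflect acetylation was not tested.

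Camk2b, a calmodulin-dependent kinase gene, held the widest merged region, 3230 bp at 56.9 kb from its start. Its folds were 9.81 and 17.7, 9.47 and 7.84, and 6.37 and 5.79, but they come from different places in the region, which only the germ-free replicate 2 interval spanned. The E. coli intervals, chr11:6008756-6009139 and chr11:6008303-6008846, did not overlap those of germ-free replicate 1 or the conventional libraries. The libraries are therefore not ranked here. Camk2b had no promoter interval in any library. Lmo7, a junction-associated LIM protein gene, had 18 intronic regions, all over 5 kb from the start, 1 of them called in all 6 libraries, and also no promoter interval. The farthest regions called in 2 or more libraries lay in Ptprd, a receptor phosphatase gene, 1763 kb from its start and called in 5 libraries, and in Pde4d, a cAMP phosphodiesterase gene.

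The merged regions named 2796 host genes whose RefSeq location overlapped them. Of these, 2701 were protein-coding, which is 12.3% of the 21900 protein-coding genes, and 949 (4.33%) had a region called in 2 or more libraries. Host genes were long, with a median of 46.5 kb against 17.1 kb over all protein-coding genes. A promoter interval in any library was present in 76.9% of protein-coding hosts, against 37.0% of all protein-coding genes, and 623 hosts had none. A single region was found in 1553 hosts, 285 had 5 or more and 68 had 10 or more.

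The hosts with the most regions were Pde4d (22 regions over 1302 kb), C130026I21Rik (21 over 41.6 kb) and Coro2a (21 over 65.0 kb). Coro2a, an actin-binding coronin, had 3 and 13 called regions (germ-free), 1 and 2 (E. coli) and 1 and 12 (conventional), and a promoter interval in all 6. Bcar3, Eps8, Lmo7, Rere and Vmp1 followed with 18 each. Eps8, which caps actin filaments in microvilli, had 1 and 18, 0 and 0, and 1 and 3. Each of these genes had most of its regions in germ-free replicate 2, whereas C130026I21Rik, of the Sp140 cluster, had 13 and 7, 11 and 4, and 7 and 4. For 101 regions (1.63%) every named host lies elsewhere in the genome, as with the names Gm13152 and Bc1, and these were kept as regions without a host.

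Gene lists of the epithelium were well represented among hosts. Of 37 microvillus and actin genes 32 had an intronic region (86.5%), and 21 had one called in 2 or more libraries (56.8%). The counts were 27 of 40 for junction and barrier genes (67.5%, and 23 in 2 or more libraries), 29 of 44 for intestinal transcription factors (65.9%, and 23) and 26 of 41 for nuclear receptors and lipid metabolism (63.4%, and 12). Absorptive transport and digestion gave 27 of 48 (56.2%, and 18). All are above the 12.3% of protein-coding genes, and the median length of these lists ran from 14.8 kb for the transcription factors to 46.5 kb for the nuclear receptor list.

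In the transcription factor list, Isx, an intestine-specific homeobox gene, had a region in 5 libraries, with folds of 7.50 and 12.7 (germ-free), 5.70 in E. coli replicate 2, and 7.08 and 10.1 (conventional). Hnf4g, the intestinal partner of Hnf4a, had a far region 127 kb from the authors' start that was called in both germ-free (5.19 and 6.33) and both conventional libraries (7.08 and 7.24) and in neither E. coli library. In the junction list, Cldn7, a claudin, had 10.4 and 12.0, 8.29 in E. coli replicate 1, and 7.78 and 16.7 at a place that only that E. coli library classed as intronic. Ctnnb1 and Ctnnd1, the catenins of the adherens junction, had a region in all 4 germ-free and conventional libraries and in neither E. coli library.

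In the microvillus list, Eps8, Pls1 and Eps8l2 had regions in the same 4 libraries. The Eps8 region at chr6:137569492-137569904 had 7.50 and 13.9 in the germ-free and 6.37 and 8.69 in the conventional libraries. That of Pls1, which encodes the bundling protein plastin 1, had 5.77 and 5.70, and 7.08 and 7.97, at 30.5 kb from the start. In the transport list, Slc6a19, a neutral amino acid transporter, had 8.66 and 10.1 in the germ-free, 6.41 in E. coli replicate 2 and 6.52 in conventional replicate 2. In the lipid list, Fabp2, the intestinal fatty acid binding protein, had a region in all 6 libraries (8.08 and 6.97, 6.51 and 6.41, and 6.37 and 7.24) that overlaps 4933405D12Rik, so its authors' start differs by list. Vdr and Nr5a2, nuclear receptors for vitamin D and phospholipids, each had a region in 4 libraries, with E. coli replicate 1 among them.

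Other lists were lower. Inositol phosphate genes gave 16 of 30 (53.3%, and 6 in 2 or more libraries), growth factor and cytoskeletal signalling 23 of 51 (45.1%, and 10), and Wnt and crypt genes 14 of 38 (36.8%, and 9). Histone acetylation and chromatin genes and the interferon and antigen presentation list each had 15 of 41 (36.6%), and clock genes 8 of 22 (36.4%). Itpk1, an inositol kinase, had 17 regions, of which 14 were called in conventional replicate 2, 5 in germ-free replicate 2, 2 in conventional replicate 1 and 0 in the other 3 libraries. Kdm6b, a demethylase of histone H3 lysine 27, had a region in all 4 germ-free and conventional libraries (7.50 and 8.87, and 7.08 and 8.69). Mucus, goblet and antimicrobial genes gave 8 of 32 (25.0%) and innate sensing genes 10 of 44 (22.7%).

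Ribosome and translation genes, which are short (median 4.11 kb), gave 5 of 38 (13.2%), although all 38 had a promoter interval in some library. Of 26 immune cell markers none had an intronic region, and of 34 stroma, vessel, muscle and nerve markers 1 did, Myh11 in conventional replicate 2. In a shorter marker check, 11 of 12 epithelial markers were hosts and promoter intervals were listed for 11 and 12, 9 and 7, and 11 and 12 of them, in the order used above. None of 10 immune and 12 stromal markers had a promoter interval in any library. Of 8 small intestinal markers 4 were hosts, and promoter intervals numbered 3 and 5, 1 and 1, and 4 and 5. Of 8 colon markers 1 was a host, and promoter intervals numbered 0 and 2, 0 and 0, and 0 and 2.

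Presence by housing group was then counted. Called in both germ-free libraries and neither E. coli library were 214 intronic regions (3.45%), against 6.74% of regions of all classes. Of the 389 intronic regions called in both germ-free libraries this is 55.0%, against 61.9% over all classes. Near regions made up 66.4% of the 214, and 50.5% were promoter class in some library. They fell in 0.909% of protein-coding genes. The reverse pattern, both E. coli and neither germ-free, held 2 regions (0.0322%, against 0.0125%). The first was in Slc5a1, the sodium-glucose transporter, with folds of 5.92 and 5.70 in the E. coli libraries and 5.79 in conventional replicate 2, and the other was in Sp140. The E. coli intervals at Slc5a1, chr5:33105938-33106083 and chr5:33105772-33105945, overlapped only at their edges.

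The same contrast in lists of equal length gave other counts. Among the 868 most significant intervals of each library, 12 intronic regions were germ-free without E. coli and 12 were E. coli without germ-free. At that length no count over all classes was made, here or below, and the E. coli lists held the highest intronic shares (20.5 and 19.2%). Counts at that length are therefore not read as a result about intronic regions. The full germ-free lists held 4428 and 17092 intervals and the E. coli lists 1986 and 868, so group and list length cannot be told apart in the full counts.

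The germ-free regions without E. coli with the highest ranks included those of Hjurp (13.9 and 19.0 in the germ-free and 5.66 in conventional replicate 1), 1810026B05Rik (9.23 and 23.4) and Irf2bp2 (9.23 and 13.9). Hjurp is the chaperone of the centromeric histone, and Irf2bp2 is a corepressor that binds Irf2. Osr2, a zinc-finger factor of the odd-skipped family, had 8.08 and 12.7, and Ell2, a transcription elongation factor, had 7.50 and 11.4. Npepps, an aminopeptidase, had 7.50 and 10.1. All of these were also called in at least 1 conventional library, and all were within 2 kb of a start and classed as promoter or exon by at least 1 library.

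Called in both conventional and neither E. coli library were 225 regions (3.63%, against 5.82% of all regions), in 0.913% of protein-coding genes. This is 59.1% of the 381 called in both conventional libraries, against 59.0% over all classes. Near regions made up 71.6%. The reverse, both E. coli and neither conventional, held 8 regions (0.129%, against 0.0792%): 2 in Speer7-ps1, 2 in Sp140, and 1 each in Speer8-ps1, C130026I21Rik, Gm7120 and Lyst. Of these, 6, all but those of Gm7120 and Lyst, lie in the multicopy Speer and Sp140 families and are uncertain for that reason. The E. coli intervals at C130026I21Rik, chr1:85257472-85257617 and chr1:85257215-85257474, overlapped only at their edges. With 868 intervals a list the counts were 14 and 23.

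The conventional regions without E. coli were led by Tbx3, a T-box factor (14.2 and 18.8, and 5.70 in germ-free replicate 2), and Sepp1, the plasma selenoprotein (11.3 and 18.8, and 6.35 and 10.8 in the germ-free). Another Epcam region followed, with 5.77 from an intronic interval of germ-free replicate 1. Its other values come from the wide promoter intervals already counted at the first Epcam region. Next was Pou2f1, a POU-domain factor (9.91 and 15.9, and 4.62 and 14.6). Rxra, the shared partner of nuclear receptors, had 9.91 and 14.5, and 4.62 in germ-free replicate 1. Muc13, a membrane mucin, had 9.20 and 13.04, and 15.8 in germ-free replicate 2, and Cdkn1a, the cell cycle inhibitor p21, had 8.49 and 13.04, and 15.2 in germ-free replicate 2. Each was thus also present in at least 1 germ-free library.

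The germ-free and conventional groups differed at few regions. Called in both germ-free and neither conventional library were 53 (0.855%, against 0.763% of all regions), and in both conventional and neither germ-free library 33 (0.532%, against 0.600%). With 868 intervals a list these were 9 and 13. Only 39.6% of the 53 were near, and 46 of them were in neither E. coli library. Jarid2, a subunit of the Polycomb complex PRC2, had 6.93 and 15.2 in the germ-free libraries at 139 kb from its start and no call in the other 4. Ucp2, a mitochondrial carrier, had 6.93 and 6.33, St7l had 5.19 and 16.5, and Tox, a high-mobility-group factor, had 5.19 and 10.8.

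Of the 33 conventional regions, 31 were called in neither E. coli library. Anpep, the brush-border aminopeptidase N, had 10.6 and 6.52 in the conventional libraries and 5.92 in E. coli replicate 1. Adap1 had 5.66 and 10.1, Als2cr12 had 6.37 and 5.79, and Lrrfip1 had 7.08 and 5.07. The Lrrfip1 intervals, chr1:91054544-91054718 and chr1:91054709-91054895, overlapped only at their edges. A further Klf5 region, 5.19 kb from the start, had 5.66 and 7.24, and another Hnf4g region, 128 kb from the start, had 5.66 and 6.52. Specc1l had 4.95 and 7.97. The lowest fold that the conventional lists report is 4.25 and 3.62.

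Patterns over all 3 groups were as follows. In all 4 germ-free and conventional libraries and neither E. coli library there were 68 regions (1.10%), against 2.41% of all regions. In all 4 germ-free and E. coli libraries and neither conventional library there were 2 (0.0322%, against 0.0334%). In all 4 E. coli and conventional libraries and neither germ-free library there were 0, against 0.00417%. Every pattern with E. coli absent was thus a smaller share of intronic than of all regions. Among regions that both conventional libraries called, however, absence from E. coli was as common for intronic regions (59.1%) as for all classes (59.0%). Among those that both germ-free libraries called it was 55.0 against 61.9%. Each other pattern held under 1% of intronic and of all regions, so closeness in percentage points says nothing there. With 2 libraries a group no such count can be set against replicate error, and no difference between groups described here passed, or could pass, 0.05.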

How the data were processed

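H3K9ac was measured by chromatin immunoprecipitation and sequencing in 6 libraries, grouped by the labels. The submitters' processing notes name the build mm10, Bowtie (version 1.2.0), a read aligner, and MACS2 (version 2.1.1.20160309), a peak caller. Peak options and input controls: not given in the sources used here. The authors deposited 1 list per library, with the pileup (signal), -log10 p-value and -log10 q-value, fold enrichment (a ratio) and region class of each interval. In the list of germ-free replicate 2 the header is shifted and holds no pileup, so its columns were identified from the values. Fold and -log10 p follow read depth and were used only to describe or rank intervals within a list.

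Lines repeating an interval were merged and the tallest summit kept. Mitochondrial lines (2 to 40 a list) were left out. Intervals classed intron were merged over libraries at 1 bp overlap, and a region was called in a library where an interval of any class overlapped it. The fold of a region in a library is that of the highest-ranked such interval. Distance runs from the authors' start to the interval's midpoint. A host gene had to overlap the region in the RefSeq table of GRCm38.p6, where 2824 of 2835 host names matched. Libraries were compared by exact permutation (15 splits for 3 groups, 3 for 2 groups) and by exact sign flips of 6 within-library differences, tested on simulated data. Computation, including the permutation tests, used NumPy 2.4.6 and pandas 2.3.3 under Python 3.11.15, with matplotlib 3.10.9 for plots. Depth per library is given only as the stated 20 M reads, so precision rests on the 2 libraries a group. The list-wide constant in the folds was 0.733 (germ-free replicate 1), 0.690 and 0.403 (E. coli) and 0.413 and 0.381 (conventional). Whether the number of reads used differed between libraries in the same way was not tested.

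Named regions were the 10 highest-ranked in all 6 libraries, the 8 highest-ranked of each pattern, the 10 hosts with most regions, the 5 widest and 5 farthest, list members called in 4 or more libraries and up to 4 others a list. A result that this rule would name is not reported here. The members and gene lists were chosen with earlier results of these data known, and the 5 kb split was chosen after seeing the data. A motif search of the intronic regions themselves was not run, because no genome was used here. Alternatives covered stricter thresholds, equal list lengths, overlap rules, class, start sites, left-out libraries and a replicate block.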

Additional observations from a re-analysis of the deposited data

How the results depend on the processing

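Of 355 recomputed values 286 were labelled the same, 23 reversed, 44 counts moved by over 1.5 times and 2 passed the threshold. Counts were the same within 1.5 times. Tests were the same if they kept their side of 0.05 and, for differences, their direction. With all 6 libraries the smallest p of a permutation between groups is 0.0667 (3 groups) or 0.333 (2 groups). Those tests could not pass 0.05, so keeping their side is no sign of robustness. Most came from these settings: the 868 most significant intervals of each list, leaving out the regions called in all 6 libraries, and leaving out a library. With 868 intervals a list, the log2 number turned to 0.91 for E. coli minus germ-free and 1.51 for E. coli minus conventional, the near share for E. coli minus germ-free to 3.40 points and the rank difference to 5.58 points. Without the regions called in all 6, the intronic share turned to -5.44 points for E. coli minus germ-free and -0.371 for E. coli minus conventional, the near share to -2.55 for E. coli minus conventional and the far share to -2.33 for E. coli minus germ-free. The E. coli minus germ-free intronic share was -0.0173 without hosts placed elsewhere, and its near share was 0.205 among intervals of at least 5-fold. Using the nearest RefSeq start, the near share of E. coli minus conventional was -0.254 and the far share of E. coli minus germ-free -0.212. The width difference passed 0.05 (exact permutation p = 0.0312) at a -log10 q of 5 or more (-111 bp) and without the regions called in all 6 (-67.5 bp). The second setting removed wide intronic intervals but no promoter intervals, so its shift was built in.

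Counts of regions fell with stricter thresholds, as fewer intervals remained. At a -log10 q of 5 or more they were 52 (germ-free without E. coli), 12 (germ-free without conventional), 0 (E. coli without germ-free), 3 (E. coli without conventional), 8 (conventional without germ-free), 75 (conventional without E. coli), 40 (all 6) and 808 (1 library). At a fold of 5 or more they were 137, 34, 3 (E. coli without conventional), 11, 118 and 2676 (1 library). With 868 intervals a list they were 12, 9, 12, 23, 13, 14, 36 and 177 in the full order. Counting only intron-class intervals gave 118 (germ-free without E. coli), 10 (E. coli without germ-free), 22 (E. coli without conventional), 118 (conventional without E. coli) and 39 (all 6).

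Leaving out each library in turn gave intronic shares of -2.40 to 3.44 points for E. coli minus germ-free, near shares of -1.51 to 1.25 (E. coli minus germ-free), -1.87 to 0.885 (conventional minus germ-free) and -0.442 to 1.16 (E. coli minus conventional), far shares of -0.891 to 2.20 (E. coli minus germ-free), and log2 numbers of -2.12 to 0.65 (conventional minus germ-free). Counts ran from 200 to 3870, 51 to 2803, 2 to 159, 8 to 183, 33 to 1471, 213 to 2554, 86 to 111 and 2822 to 4676, in the full order. The high ends need a call in 1 library only.

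The replicate numbers are shared across groups without a stated pairing, and replicate 1 had fewer intronic intervals in the germ-free and conventional groups and more in the E. coli group. With the replicate block the groups held 70.2% of the remaining sum of squares of the intronic share (exact permutation p = 0.5). No call changed, and none of these tests between groups could have passed the threshold. Effects under the spread of 2 libraries were not detectable here.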

Other observations

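Some hosts of intronic regions had no promoter interval in any library. Of the 623 protein-coding hosts of this kind, Lipc, the hepatic lipase, had 14 intronic regions, with 1 and 10 (germ-free), 0 and 0 (E. coli) and 0 and 8 (conventional). Lhfpl2 had 10, all of them called in germ-free replicate 2 and 1 and 2 of them in the conventional libraries. Atp10b, a phospholipid flippase gene, had 6, with 2 and 5, 0 and 0, and 0 and 3. All of these lay 5 kb or more from the authors' start.

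The Ugt1a cluster, whose glucuronosyltransferases share their last exons and differ in the first, had 8 regions that carry the names of several members at once. The germ-free libraries called 4 and 6 of them, those with E. coli 3 and 0, and the conventional pair 2 and 4, and the members listed without a promoter interval included Ugt1a6a, Ugt1a6b, Ugt1a9 and Ugt1a10. Abcg2, an efflux transporter of the apical membrane, had 6 regions and no promoter interval at the authors' start. A further RefSeq start of Abcg2, 43874 bp downstream, lay in a region called in germ-free replicate 2 (5.07-fold) and both conventional libraries (6.37 and 7.97).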
